A study of Homo sapiens with 12 samples.

Results

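The genes described here are 8 chemokines (CXCL1, CXCL2, CXCL3, CXCL5, CXCL8, CXCL16, CCL20 and CCL28) and the atypical chemokine receptor ACKR4, 9 of the 60675 genes in the deposited table. They were chosen by name, with results of these same libraries already known, so their levels across the dose groups are given as a description and carry no p-value. All 9 had reads in some library. Levels are given as CPM, the count scaled to a common library size. The filter on low counts kept 15374 genes, among them 8 of the 9. CXCL5, which had no read in the vehicle group, was not fitted.

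The cells were HT29, a line from a human colorectal adenocarcinoma that grows as an epithelium. They received the water extract of Aconitum carmichaeli Debeaux (ACD), a herbal medicine, at 20 (low), 100 (medium) or 500 (high) µg/mL for 24 h. The vehicle group received PBS containing 2% DMSO for the same time. The paper prepared the extract stock in the same solvent and treated the cells by adding a small volume to the growth medium. The 2% is therefore that of the solvent and not of the culture. Each of the 4 groups had 3 libraries of RNA from whole cell lysates. The sample titles name ACD, whereas the accompanying treatment protocol describes an extract of Poria cocos, so the identity of the extract rests on the titles and the paper. All libraries came from 1 cell line with no immune cells added, and nothing states that the replicates were separate cultures, so every p-value below measures the spread between these samples only.

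Chemokines are small secreted proteins that draw leukocytes along a gradient by way of G protein-coupled receptors. CXCL1, CXCL2, CXCL3, CXCL5 and CXCL8 carry the Glu-Leu-Arg (ELR) motif and call neutrophils through CXCR2 and, for CXCL8, also CXCR1. CCL20 draws lymphocytes and dendritic cells that bear CCR6, CCL28 draws antibody-secreting cells through CCR10 and CCR3, and CXCL16 is a membrane-bound ligand of CXCR6. ACKR4 removes chemokines, CCL19, CCL21 and CCL25 among them, without signaling to move the cell. In the colon, the epithelium makes several of these ligands when NF-kB is activated by microbes or cytokines.

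The 5 neutrophil-attracting genes lie in 1 cluster on chromosome 4 that spans 359 kb of GRCh38. In the GENCODE annotation, CXCL8 is at chr4:73740519-73743716 and CXCL1 at chr4:73869393-73871308, both on the plus strand. CXCL5 (chr4:73995642-73998677), CXCL3 (chr4:74036589-74038807) and CXCL2 (chr4:74097040-74099196) lie on the minus strand. The other members stand alone, CCL20 at chr2:227805739-227817564 (plus), CCL28 at chr5:43376645-43412391 (minus), CXCL16 at chr17:4733533-4739928 (minus) and ACKR4 at chr3:132597270-132618967 (plus). CXCL16 overlaps MED11 and ZMYND15, and ACKR4 overlaps ACAD11, in each case on the opposite strand. The library kit keeps strand, but the strand setting of the counting is not given in the sources used here, so reads of these overlapping genes may not be separated.

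The sequences just ahead of the start sites are shown because the 5 neutrophil-attracting genes share a short run there. They are RefSeq promoter windows of GRCh38.p14, printed 5′ to 3′ from base 160 ahead of the RefSeq start, ending before any exon of the same gene in GENCODE. Capitals mark GGAATTTCC, an NF-kB type site, in CXCL1, CXCL2, CXCL5, CXCL6 and CXCL8, and also TGACTCA, an AP-1 type site, in CXCL8. In CCL20, which lacks the first run, they mark GGAAAACCC, a match to the looser pattern GGANNNNCC. CXCL3 is left out because an annotated exon covers most of its window. CXCL6, another ELR chemokine gene of the cluster, is no member and is shown beside CXCL5 for comparison. The windows are chr4:73869233-73869392 (plus) for CXCL1, chr4:74099197-74099355 (minus) for CXCL2, chr4:73998678-73998837 (minus) for CXCL5, chr4:73836518-73836639 (plus) for CXCL6, chr4:73740409-73740518 (plus) for CXCL8 and chr2:227813682-227813821 (plus) for CCL20.
CXCL1: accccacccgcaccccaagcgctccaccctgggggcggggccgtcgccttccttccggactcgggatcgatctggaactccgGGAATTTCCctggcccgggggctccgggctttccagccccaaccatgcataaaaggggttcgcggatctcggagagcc
CXCL2: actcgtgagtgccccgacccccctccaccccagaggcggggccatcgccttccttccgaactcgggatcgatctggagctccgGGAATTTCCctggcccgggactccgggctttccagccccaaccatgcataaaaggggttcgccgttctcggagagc
CXCL5: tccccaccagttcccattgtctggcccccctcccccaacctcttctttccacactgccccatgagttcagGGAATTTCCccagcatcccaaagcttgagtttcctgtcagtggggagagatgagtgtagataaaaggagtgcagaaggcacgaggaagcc
CXCL6: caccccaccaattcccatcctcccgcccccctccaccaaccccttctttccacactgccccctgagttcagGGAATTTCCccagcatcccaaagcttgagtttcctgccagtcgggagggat
CXCL8: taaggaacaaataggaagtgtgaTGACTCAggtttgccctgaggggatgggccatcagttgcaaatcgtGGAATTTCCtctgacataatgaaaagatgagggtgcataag
CCL20: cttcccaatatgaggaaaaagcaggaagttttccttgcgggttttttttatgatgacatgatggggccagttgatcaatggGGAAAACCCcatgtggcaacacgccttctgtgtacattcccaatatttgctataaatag

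Both strands of the 300-base RefSeq windows, 250 bases ahead of the start and 50 after it, were searched. GGAATTTCC stood in 5 of the 7 members that had a window, and in 0.461% of 35116 promoters. The windows are shown because of this shared run, so these shares describe the sequences and do not test an enrichment. The run began 78 bases ahead of the RefSeq start in CXCL1 and CXCL3, 77 in CXCL2, 90 in CXCL5 and 91 in CXCL8, and 89 in CXCL6. The CXCL3 match lay inside an annotated exon, which reaches 118 bases ahead of that start. The looser GGANNNNCC, which every GGAATTTCC also matches, was in 7 of 7 members but also in 53.6% of all promoters. TGANTCA was in CXCL8 alone among the members, 137 bases ahead of its start, and in 7.71% of promoters. The 250 bases ahead of CXCL1 were 81.4% identical to those of CXCL3 and 71.4% identical to those of CXCL2, and CXCL5 and CXCL6 were 85.3% identical, so these windows are not independent of each other. CXCL2 and CXCL3 were 71.3% identical. Among the remaining pairs of members, identity was at most 50.8%. A match of letters is a description of the sequence and shows no binding.

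The libraries held 15941255 to 33866644 expected counts. High replicate 2 was the shallowest and stood apart, with an SD of log2 differences from the other high libraries of 0.502 against 0.102 to 0.293 for the remaining libraries. Genes of the mitochondrial chromosome took 14.04 to 16.59% of counts at the high dose and 7.409 to 11.05% elsewhere. The mitochondrial ribosomal RNA gene MT-RNR1 alone took 2.73 to 2.89% at the high dose, 0.297 to 0.345% at the medium dose, and 0.104 to 0.138% in the low-dose and vehicle libraries, and its part in the results was not tested. With library sizes taken without them, none of the counts of called genes at the high dose given below differed. All 11 colon epithelial markers averaged at least 1 CPM, with sums of 11370 to 13600 CPM per library. Of 9 leukocyte markers, 4 did so, and the sum of 1276 to 1902 CPM came mostly from LYZ, a lysozyme gene that epithelia also express, at a mean of 1570 CPM. PTPRC, the pan-leukocyte marker, had at most 3 counts, the neutrophil marker CSF3R at most 1 and FCGR3B 0. The other leukocyte markers above 1 CPM were CD68 (mean 8.55 CPM), CD14 (3.23) and ITGAM (1.84). In bulk RNA, fewer cells of a type and less RNA per cell cannot be told apart.

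CXCL1, a neutrophil ligand that acts on CXCR2, had 1.98, 1.46 and 1.49 CPM in the 3 vehicle libraries. Low-dose libraries had 6.36, 6.77 and 6.80 CPM, medium-dose libraries 13.4, 11.95 and 13.5 CPM, and high-dose libraries 22.2, 34.5 and 23.8 CPM. Each dose lay wholly above the one beneath it. The fitted log2 fold change against vehicle was 2.04 (SE 0.197), 3.00 (SE 0.19) and 4.04 (SE 0.187) with rising dose. Without high replicate 2, which gave the highest value, the high-dose value was 3.84 (SE 0.117).

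CXCL8 (interleukin 8), the neutrophil ligand that acts on CXCR1 as well as CXCR2, had 4.95, 4.18 and 3.74 CPM in vehicle and 10.7, 10.4 and 11.7 CPM at the low dose. Medium libraries had 16.9, 19.4 and 17.8 CPM, and high libraries 23.8, 55.6 and 30.0 CPM. Each dose lay above the one beneath it without overlap, but the high replicates spread widely, with a coefficient of variation of 46.2% against 6.48% at the low dose. The log2 fold change was 1.36 (SE 0.274), 2.08 (SE 0.27) and 3.08 (SE 0.27) at the low, medium and high doses, and 2.67 (SE 0.119) at the high dose without high replicate 2.

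CXCL2 and CXCL3 encode close relatives of CXCL1. CXCL2 had 0.220, 0.364 and 0.352 CPM in vehicle, then 0.687, 0.705 and 0.671 (low), 1.06, 1.21 and 0.983 (medium), and 2.30, 1.49 and 1.75 (high). CXCL3 had 0.936, 1.09 and 0.659 CPM in vehicle, then 1.82, 1.45 and 1.57 (low), 2.39, 2.19 and 1.88 (medium), and 2.97, 5.10 and 3.94 (high). No 2 groups overlapped for either gene, although CXCL2 rested on only 4 to 12 counts per vehicle library. At the high dose the log2 fold change was 2.52 (SE 0.248) for CXCL2 and 2.11 (SE 0.235) for CXCL3. At the low dose it was 1.09 (SE 0.274) and 0.82 (SE 0.249).

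CXCL1, CXCL2 and CXCL3 are similar enough in sequence that reads could be shared among them. Their expected counts were whole numbers, within 0.005, in 12 of 12 libraries, as they are where no read is divided among genes. Summed as a single feature, they had a log2 fold change of 1.65 (SE 0.16), 2.50 (SE 0.156) and 3.51 (SE 0.156) with dose.

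CXCL5, another CXCR2 ligand, had 0 counts in all 3 vehicle libraries. Low-dose libraries had 1, 3 and 0 counts, medium-dose libraries 4, 10 and 8, and high-dose libraries 9, 12 and 5. Medium and high libraries were all above vehicle, and the low libraries were not. Against a floor of 3 counts over the vehicle group, CXCL5 was at least 7.05-fold higher at the medium dose and at least 9.3-fold higher at the high dose. The gene overlaps a long noncoding RNA on the opposite strand.

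CCL20, the single ligand of CCR6 among the chemokines, had 0.220, 0.364 and 0.483 CPM in vehicle, from 4 to 12 counts. Low-dose libraries had 1.17, 1.304 and 1.61 CPM, medium-dose libraries 2.20, 2.71 and 2.05, and high-dose libraries 4.46, 8.50 and 5.07. As with CXCL1, no dose overlapped the next. The log2 fold change was 1.88 (SE 0.358), 2.66 (SE 0.336) and 4.00 (SE 0.316), and 3.70 (SE 0.241) at the high dose without high replicate 2. From the medium to the high dose it differed by 1.33 (SE 0.241) on the log2 scale, beside 1.04 (SE 0.148) for CXCL1 and 1.00 (SE 0.236) for CXCL8.

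ACKR4, the scavenging receptor, had 1.87, 2.03 and 1.80 CPM in vehicle. Low libraries had 2.54, 2.08 and 2.51 CPM and medium libraries 2.71, 2.35 and 2.13 CPM, both groups above vehicle but overlapping each other. The high libraries, at 2.97, 6.23 and 4.15 CPM, were above all others. The log2 fold change was 0.31 (SE 0.236) and 0.32 (SE 0.237) at the low and medium doses and 1.19 (SE 0.229) at the high dose. Without high replicate 2 the last value was 0.92 (SE 0.181).

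CXCL16 and CCL28 had no such gradient. CXCL16 had 10.6, 11.4 and 9.89 CPM in vehicle and 13.96, 10.3 and 12.1 CPM at the high dose, with 9.13 to 12.2 CPM at the doses between. CCL28 had 3.96, 4.09 and 3.87 CPM in vehicle and 2.93, 4.46 and 3.32 CPM at the high dose, with 2.95 to 4.16 CPM between. High-dose and vehicle libraries overlapped for each gene. Their log2 fold changes at the high dose were 0.20 (SE 0.115) and -0.18 (SE 0.171).

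**Figure D1:**
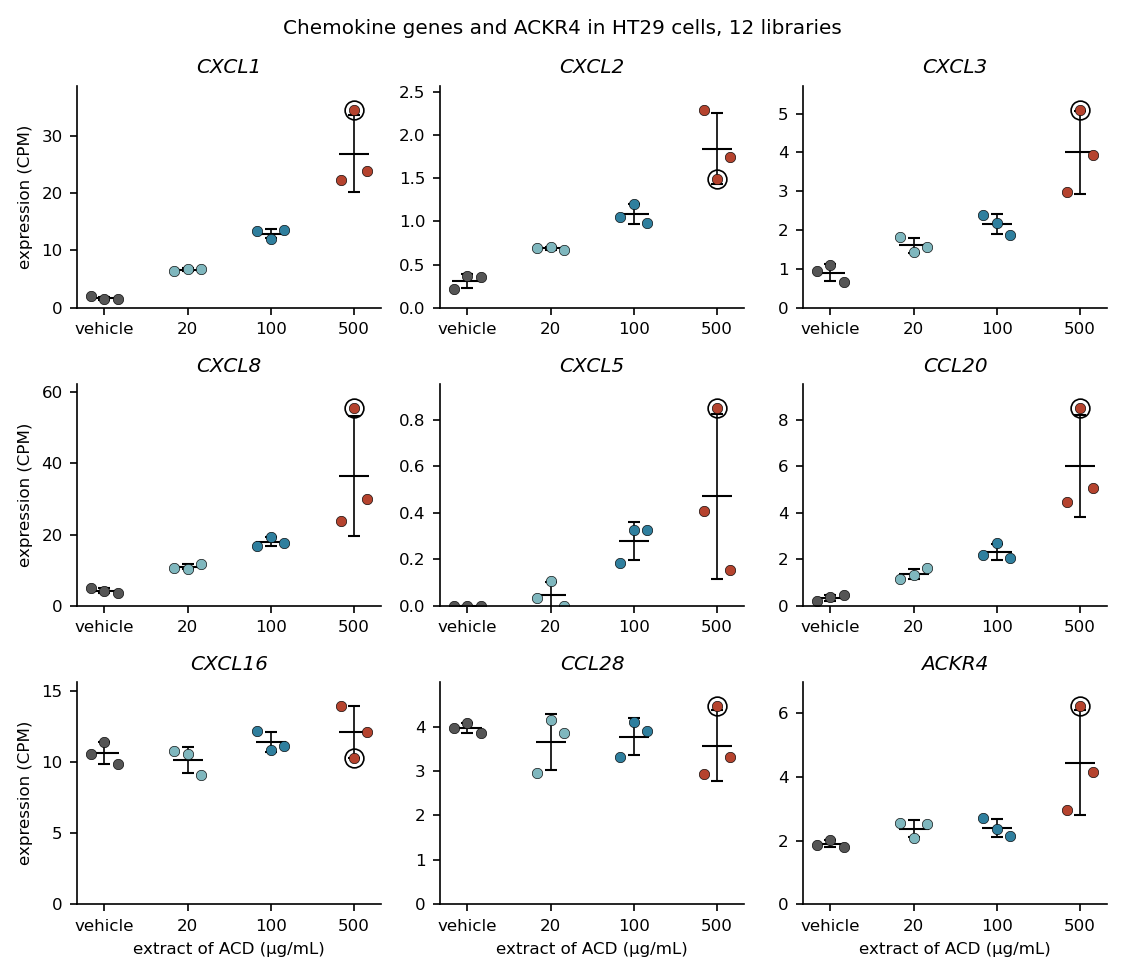
Expression of the 9 genes in each library, in CPM on a linear axis from 0, against the dose of ACD; points are libraries, horizontal bars are means with SD (n = 3), and the ring marks high replicate 2. CXCL1, CXCL2, CXCL3, CXCL8 and CCL20 lay higher at each dose with no overlap, whereas vehicle and high-dose points of CXCL16 and CCL28 overlapped.

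**Figure D2:**
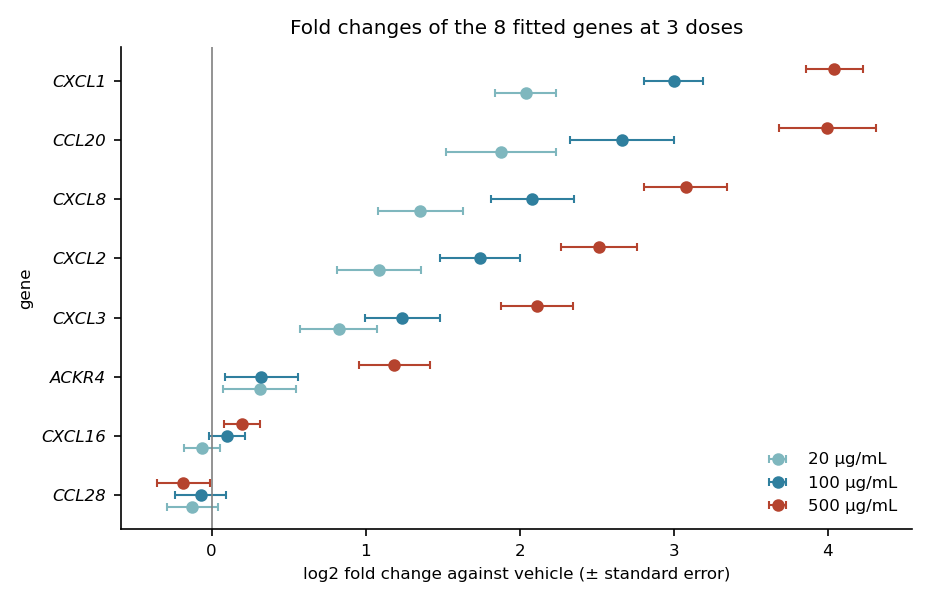
Log2 fold change against vehicle with its standard error for the 8 fitted genes at the 3 doses, ordered by the value at 500 µg/mL. CXCL1 (4.04) and CCL20 (4.00) were at the top and CCL28 (-0.18) at the bottom.

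Across the 8 fitted genes the median log2 fold change was 0.96, 1.49 and 2.31 at the low, medium and high doses, beside -0.00, -0.01 and 0.01 over all genes. With the thresholds used for other genes, an adjusted p below 0.05 and a change above 1.5-fold, 6 of the 8 lay past them in the upward direction under high-dose treatment, 5 under medium-dose and 1 (CXCL1) under low-dose treatment. The share of all fitted genes past them upward was 1.26%, 0.384% and 0.065%. At the medium dose CXCL3 lay past them in 10 of 21 alternatives, and not with the replicate block or without any 1 of the vehicle, low or medium libraries or high replicate 3. At the high dose ACKR4 was not past them when edgeR used only vehicle and that dose. Since the genes were chosen from these same contrasts, nothing is read from that difference. All 3 libraries of a dose lay above all vehicle libraries for 6 of the 8 at each dose, where 10.5% (high), 14.5% (medium) and 11.4% (low) of all genes did. The 3 doses share the vehicle libraries, so they are not separate pieces of evidence.

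High replicate 2 was the highest of the high libraries for CXCL1, CXCL3, CXCL5, CXCL8, CCL20, CCL28 and ACKR4, and the lowest for CXCL2 and CXCL16. The 5 graded genes, CXCL1, CXCL2, CXCL3, CXCL8 and CCL20, were correlated over the 12 libraries at r of 0.896 to 0.985 in 10 pairs. They were grouped because each lay higher at every dose, so a high r over these libraries follows from that choice. After the group means were removed, r in these pairs ran from -0.896 to 0.859. Outside the set, CXCL1 had r over the 12 libraries of 0.407 with CXCL16, -0.234 with CCL28 and 0.788 with ACKR4. The genes share libraries, dose groups and depth, and the part of depth in these values was not tested.

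To compare genes, levels were divided by the length in kb of all annotated exons of each gene. The length of the transcripts present was not measured, so the order of genes depends on this choice. Before that division, mean CPM was higher for CXCL8 than for CXCL1 in every group (36.4 and 26.8 at the high dose). Per kb of exon, the order of the members differed with dose. In vehicle, CXCL16 was highest at 3.81 ± 0.276 CPM per kb (SD, n = 3), followed by CXCL8 at 1.66 ± 0.238 and CXCL1 at 1.21 ± 0.215, which overlapped. CCL28 (0.878 ± 0.0249), ACKR4 (0.712 ± 0.044) and CXCL3 (0.404 ± 0.0986) came next without overlap. CCL20 (0.223 ± 0.0827) overlapped with CXCL3 above it and with CXCL2 (0.223 ± 0.0569) beneath it. At the low dose CXCL1 (4.88 ± 0.183) and CXCL8 (4.22 ± 0.274) were already above CXCL16 (3.64 ± 0.326), with no overlap. At the high dose CXCL1 reached 19.7 ± 4.93 and CXCL8 14.1 ± 6.51, which overlapped, and CXCL16 (4.35 ± 0.649) overlapped with CCL20 (3.77 ± 1.36).

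The makeup of the chromosome 4 ligands also differed. The summed level of the 5 genes was 7.14 CPM in vehicle, 19.9 at the low, 34.5 at the medium and 69.6 at the high dose. CXCL1 made up 23.0, 33.4, 37.5 and 39.4% of it, and CXCL8 60.0, 54.8, 52.3 and 51.1%. In CPM per kb, the ratio of CXCL1 to CXCL8 was 0.727 in vehicle and 1.16, 1.37 and 1.49 at the 3 doses. By library it was 0.661 to 0.760 in vehicle, 1.10 to 1.24 (low), 1.17 to 1.50 (medium) and 1.18 to 1.77 (high), so all dosed libraries lay above vehicle but the 3 doses overlapped.

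The wider chemokine system was described with 8 lists of 164 genes, 94 of which were fitted and 29 of which had no count. At the high dose 12 listed genes rose and 2 fell by edgeR's quasi-likelihood test (14.9% of those fitted, against 2.93% of all genes). Under medium-dose treatment 4 rose and none fell (0.676% of all genes were called in either direction). Under low-dose treatment no listed gene was called (0.111% of all genes were), with 17 at an unadjusted p below 0.05 and 1 (CXCL6) called by DESeq2. Scaled to total counts alone, the high-dose split was 8 higher and 3 lower, as that scaling moved every high-dose log2 fold change by -0.14. The lists were drawn up with earlier results known, so these counts stand as descriptions.

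Of 14 other CXC, CX3C and XC chemokines, 5 were fitted and 1 rose. CXCL6, an ELR ligand of CXCR1 and CXCR2, measured 0.324 ± 0.0141 CPM (SD, n = 3) in vehicle, 1.42 ± 0.41 CPM with the medium dose and 2.39 ± 0.818 CPM with the high dose. Its log2 fold change was 2.81 (SE 0.338, edgeR adjusted p = 0.000363) with the high dose and 2.12 (SE 0.349, adjusted p = 0.0106) with the medium dose. With the low dose it was 1.90 (SE 0.355, adjusted p = 0.07). The medium-dose call held in 14 of 19 alternatives, and was lost without any 1 of the vehicle libraries or without medium replicate 2 or 3 (adjusted p of 0.0559 to 0.0756). The ELR-negative ligands of CXCR3 that call T cells did not pass, CXCL10 at 0.39 (SE 0.643, adjusted p = 0.8) and CXCL11 at -0.39 (SE 0.403, adjusted p = 0.658), with at most 33 counts in any library. CXCL9 had at most 4 counts and CXCL12 none.

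Of 22 other CC chemokines, 14 had no count in any library, and none of the 3 fitted passed. CCL15, the most abundant, had a log2 fold change of -0.40 (SE 0.221, adjusted p = 0.35). CCL19, CCL21 and CCL25, which are among the ligands that ACKR4 clears, had no count in the 12 libraries. These 3 are not all of the ligands of ACKR4, so it does not follow that the cells expressed none.

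The cells carried almost no reads of the receptors for these ligands. CXCR1 had 0 counts, CXCR2 and CCR3 each had 1 count in 1 library, CCR6 at most 1.38 expected counts and CCR10 at most 2.72. CXCR6, the receptor of CXCL16, was fitted at a low level, 0.54 ± 0.0808 CPM in vehicle and 0.75 ± 0.546 at the high dose, with a log2 fold change of 0.54 (SE 0.49, edgeR adjusted p = 0.603). Of 22 receptors in the list, 4 were fitted and none was called by edgeR at any dose. CXCR3 had a log2 fold change of -1.07 (SE 0.306, edgeR adjusted p = 0.0654) at the high dose, which DESeq2 on all 12 libraries did call (adjusted p = 0.0489). CXCR4, the CXCL12 receptor, was lower at the medium dose with adjusted p = 0.0241, under the fold threshold at -0.49 (SE 0.0898).

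Genes of the NF-kB pathway, which controls many chemokine genes, were all fitted (26 of 26), and 1 passed both thresholds. BIRC3, a ubiquitin ligase of TNF receptor complexes, rose by a log2 fold change of 1.09 (SE 0.117, adjusted p = 0.000171) at the high and 1.05 (SE 0.116, adjusted p = 0.000715) at the medium dose. NFKB2 (0.48, SE 0.0818, adjusted p = 0.00428) and the inhibitor NFKBIA (0.38, SE 0.0858, adjusted p = 0.023) passed on p but not on fold. RELA, the main activating subunit, had a value of 0.01 (SE 0.11) and NFKB1 one of -0.10 (SE 0.0702). In all, 21 of 26 were above 0 with a median of 0.12, beside 51.0% of all genes.

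Among 33 cytokines and cytokine receptors, 21 were fitted, and at the high dose 4 rose and 2 fell. IL17C, an epithelial cytokine that acts on the epithelium itself, had 1, 2 and 2 counts in vehicle and 24, 7 and 31 at the high dose, a log2 fold change of 3.60 (SE 0.436, adjusted p = 0.000383). IL32, an inflammatory cytokine of epithelia and lymphocytes, rose by 1.93 (SE 0.272, adjusted p = 0.00121) at the high and 1.38 (SE 0.28, adjusted p = 0.0394) at the medium dose. The latter held in 10 of 19 alternatives and was lost without vehicle replicate 2 or 3, low replicate 2 or 3, high replicate 3 or any 1 medium library (adjusted p of 0.0591 to 0.229). CSF1, the macrophage growth factor, rose by 1.35 (SE 0.312, adjusted p = 0.0252) and LIF, a cytokine of the interleukin 6 family, by 0.70 (SE 0.098, adjusted p = 0.00117). The call of CSF1 was lost without vehicle replicate 1 or 2 or high replicate 1 or 3 (adjusted p of 0.0561 to 0.121). That of LIF was lost when edgeR used only vehicle and the high dose, and with total counts (log2 fold change 0.56). The 2 that fell were TNFSF10 (TRAIL), by 0.78 on the log2 scale (SE 0.131, adjusted p = 0.00391), and IL18, by 0.69 (SE 0.183, adjusted p = 0.0462). Neither was called when edgeR used only vehicle and the high dose (adjusted p = 0.0697 for TNFSF10). The IL18 call held in 8 of 21 alternatives. With 1 library left out, it held only without medium replicate 2 or high replicate 2 (otherwise adjusted p of 0.0557 to 0.144). TNF, IL1A and IL1B had at most 8 counts in a library and were not fitted.

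Of 22 genes for contact with neutrophils, antimicrobial defence and matrix breakdown, 10 were fitted and 3 rose at the high dose. ICAM1, to which neutrophil integrins bind, measured 4.53 ± 0.778 CPM in vehicle and 10.9 ± 0.517 CPM with the high dose, so its log2 fold change was 1.25 (SE 0.119, adjusted p = 6.96e-05). PTGS2, the inducible cyclooxygenase, rose by 0.63 (SE 0.0941, adjusted p = 0.00179) at the high and 0.85 (SE 0.0932, adjusted p = 0.000703) at the medium dose, with the high-dose value at 0.57, under the fold threshold, without vehicle replicate 1. CD55, a complement regulator, rose by 0.60 (SE 0.0938, adjusted p = 0.00246), but its value was under the fold threshold without high replicate 2 (0.47) or vehicle replicate 1 (0.57). At the high dose, none of 10 genes for shedding, trimming and mRNA decay of chemokines passed both thresholds. ADAM10, the main sheddase of CXCL16, was at 0.03 (SE 0.0715) and ZFP36, which destabilizes chemokine mRNA, at 0.07 (SE 0.135). ZC3H12A, also of this list, passed on p but not on fold, at 0.53 (SE 0.0879, adjusted p = 0.00353). At the medium dose ZC3H12A was 0.43 (SE 0.0875, adjusted p = 0.0394).

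Of 15 AP-1, C/EBP and immediate early factors, all were fitted and 3 rose at the high dose. ATF3, a stress-induced repressor, rose by 1.45 (SE 0.147, adjusted p = 0.000106), FOSB, an AP-1 subunit, by 0.81 (SE 0.174, adjusted p = 0.0177) and IER3, an immediate early gene, by 0.70 (SE 0.102, adjusted p = 0.00156). The call of FOSB was lost without vehicle replicate 2 or 3 or high replicate 1 or 3 (adjusted p of 0.0631 to 0.0808). That of IER3 was lost when edgeR used only vehicle and the high dose, and with total counts (log2 fold change 0.56). None of the 15 was called at the medium dose, where ATF3 was 0.21 (SE 0.155). IER3 passed there on p but not on fold, at 0.54 (SE 0.102, adjusted p = 0.0272). At the high dose JUN (0.35, SE 0.0647, adjusted p = 0.0071) and FOS (0.52, SE 0.118, adjusted p = 0.0246) passed on p but not on fold. Without high replicate 2, 18 listed genes were called at the high dose, 13 of them shared with the 14 of all libraries. The additions were TNFAIP3, EGR1, ZC3H12A, FOS and CCL15. The share of all genes called was also higher without that library, at 4.9% of 15674 against 2.93%.

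**Figure D3:**
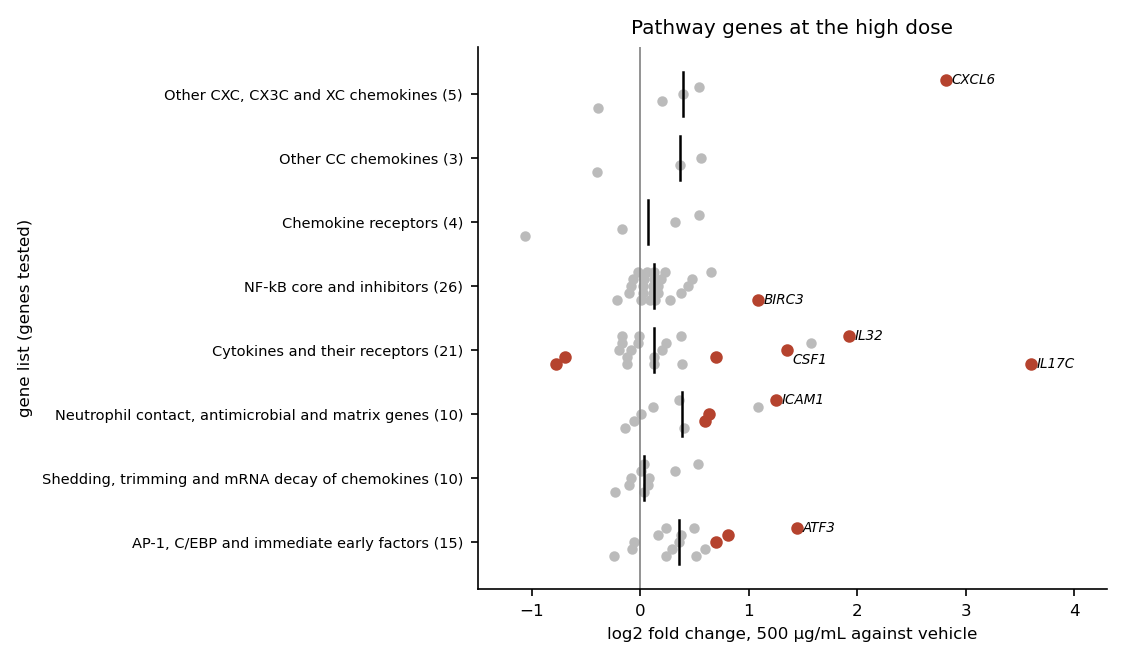
Log2 fold change at 500 µg/mL against vehicle for the 94 fitted genes of the 8 lists; red points passed both thresholds, grey points did not, black bars are list medians, and genes called with a change above 1 on the log2 scale are named. CXCL6, IL17C and IL32 lay far to the right, whereas most NF-kB genes lay near 0.

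Genes beside the members were examined next. Within 500 kb of the chromosome 4 cluster, the annotation had 35 other genes, of which 6 were fitted. At the high dose 3 of the 6 rose, beside 1.26% of all fitted genes. The 3 were CXCL6, already counted above among the listed chemokines, and EREG and AREG, which encode ligands of the epidermal growth factor receptor. EREG (chr4:74365145-74388749) measured 79.5 ± 5.09 CPM in vehicle and 170.3 ± 12.8 CPM with the high dose, so its log2 fold change was 1.10 (SE 0.0958, adjusted p = 3.59e-05), and was 0.88 (SE 0.0954, adjusted p = 0.000644) at the medium dose. AREG (chr4:74445136-74455005) measured 40.4 ± 6.06 and 75.0 ± 17.8 CPM, for a log2 fold change of 0.89 (SE 0.15, adjusted p = 0.00386), a call lost when edgeR used only vehicle and the high dose (adjusted p = 0.0838). MTHFD2L, which lies between CXCL2 and EREG, had a value of 0.00 (SE 0.173), RASSF6 one of -0.04 (SE 0.103) and ANKRD17 one of -0.05 (SE 0.154). The promoter windows of EREG and AREG held no GGAATTTCC. Within 100 kb of CXCL16, CCL28 and ACKR4, none of the 8, 5 and 4 fitted neighbours was called by edgeR at any dose, and none of the 10 neighbours of CCL20 had enough reads to be fitted. The noncoding ENSG00000261604 beside CCL28 stood near the threshold at the high dose, at -1.01 (SE 0.273, adjusted p = 0.0521). It was called lower with DESeq2 on all 12 libraries (adjusted p = 0.0362), with total counts (0.02), with at least 10 counts in every library (0.0381), and without medium replicate 2 (0.0432) or high replicate 2 (0.00984).

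**Figure D4:**
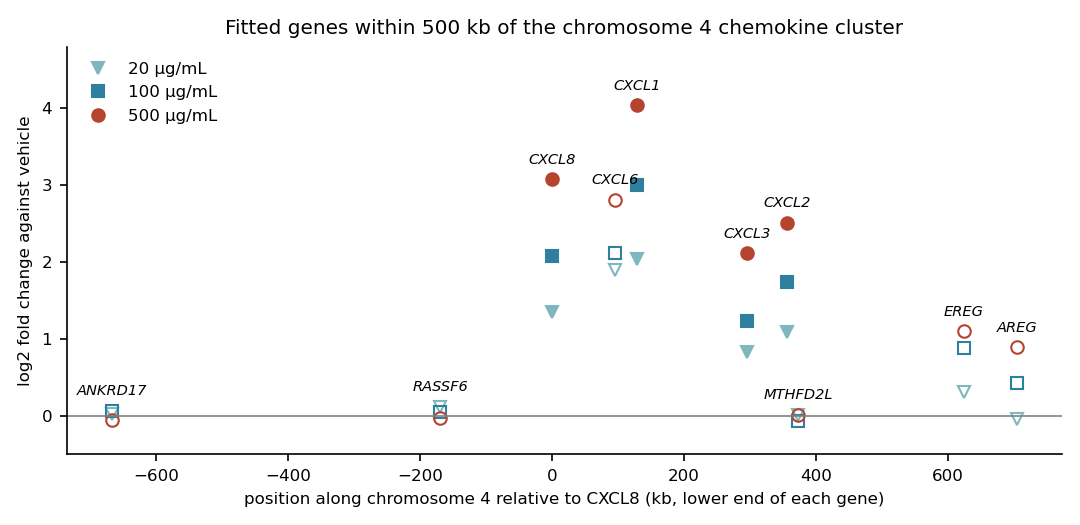
Log2 fold change against vehicle at the 3 doses for the fitted genes in and within 500 kb of the chromosome 4 cluster, placed by position relative to CXCL8; filled symbols are members and open symbols other genes. CXCL8 to CXCL2 and, farther on, EREG and AREG were above 0 at the high dose, with MTHFD2L at 0.00 between them.

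For each fitted member, the 3 genes whose log2 CPM tracked it most closely over the 12 libraries were found among 13134 genes with a mean of at least 1 CPM. PI3 (elafin), an inhibitor of neutrophil elastase, was among the 3 for CXCL1 (r = 0.972), CXCL3 (r = 0.959) and CXCL8 (r = 0.973), and averaged 3.79 CPM in vehicle and 16.5 CPM with the high dose. FGF19, a hormone that curbs bile acid synthesis, was nearest to CXCL1 (r = 0.977) and among the 3 for CXCL8 (r = 0.963), and GDF15, a stress-responsive cytokine, was also near CXCL1 (r = 0.969). The other near gene of CXCL8 was MYZAP (r = 0.967), and those of CXCL3 were BCAR3 (r = 0.977) and DUSP5 (r = 0.959), a phosphatase of ERK. TLR6, a receptor for bacterial lipopeptides, was nearest to CXCL2 (r = 0.977), followed by PRKD3 (r = 0.966) and PFKP (r = 0.961). DNAJC10, ZFAND5 and OSBPL9 were nearest to CCL20 (r = 0.977, 0.974 and 0.966). PFKM, RFC3 and NARS1 were nearest to ACKR4 (r = 0.944, 0.943 and 0.942). CXCL16, with KMT5A, AATK and EPOP (r = 0.911, 0.892 and 0.875), and CCL28, with ZNF565, ERCC6L2-AS1 and SKAP1 (r = 0.894, 0.892 and 0.875), had less close neighbours. These values are the highest of many, and the genes share libraries and dose groups.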

How the data were processed

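RNA of 12 HT29 libraries was sequenced as 100 bp pairs with a directional kit. The authors used FastQC (version 0.11.9 in the submitters' processing notes) for quality control, Trim Galore (0.6.5) for adapter removal and STAR (2.7.3a) for alignment to GRCh38. The deposited values are expected counts per Ensembl gene that the authors estimated with RSEM (1.3.3). Expected counts divide reads that match several genes and were rounded to whole numbers here. Names and positions came from GENCODE and matched 93.2% of identifiers.

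Counts were fitted with edgeR 4.0.16 (TMM scaling, filterByExpr, quasi-likelihood test, Benjamini-Hochberg adjustment over all 15374 genes) on all 12 libraries at once, with each dose compared with vehicle. A gene was called at an adjusted p below 0.05 and a change above 1.5-fold. DESeq2 1.42.0, the tool of the study, was an alternative. CPM are scaled by TMM. A standard error is the log2 fold change divided by the square root of the test's F. Likeness used log2 CPM with a prior count of 2. Levels per kb used the length of all annotated exons of a gene in GENCODE, with overlapping bases counted once. The fit was tested on simulated counts. No per-sample column was left unmapped.

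The members and lists were chosen with earlier results of these data known. The text names all members, called genes of each list (at most 5 per direction and dose), and receptors and 3 ACKR4 ligands whatever their values. It also names called neighbours and the 3 most similar genes per member. CXCL9, CXCL12, CCL15, CXCL10, CXCL11, CXCR4, the NF-kB, decay and AP-1 genes named without a call, and the uncalled neighbours were named after their values were seen. Alternatives covered the tool, samples in the fit, scaling, filter, fold threshold, replicate block and leaving out each library.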

Additional observations from a re-analysis of the deposited data

How the results depend on the processing

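An alternative gave 940 values, of single genes or of CXCL1, CXCL2 and CXCL3 summed. None reversed among genes past the thresholds in the main fit, and other genes were not checked for this label. Among those others, the sign changed near 0 for CXCL16 at the low dose (up to 0.0059). It also did so for CCL28 at the low (up to 0.0094) and medium (up to 0.010) doses. Of the 940 values, 49 of listed or neighbouring genes lost their call, and 25 of members moved by more than the SD of the replicates. The 14 listed genes at the high dose became 7 when edgeR used only vehicle and the high dose and 23 with no minimum fold change. They ran from 10 to 18 as each library was left out. With edgeR on vehicle and the high dose, the calls lost were TNFSF10, IL18, LIF, CSF1, CD55, FOSB and IER3. With total counts, LIF, IER3, PTGS2 and CD55 were under the fold threshold. At the medium dose, 4 became 2 with at least 10 counts in every library, 8 with no minimum fold change, and 2 to 6 with a library left out, the 2 arising without vehicle replicate 2, vehicle replicate 3, medium replicate 2 or medium replicate 3. At the low dose, 0 became 1 with DESeq2 on all libraries, with DESeq2 or edgeR on vehicle and that dose, and 2 with no filter. It ran from 0 to 1 with a library left out, 1 arising without high replicate 2 or high replicate 3. Without high replicate 2, more of all genes were called too, 0.695% (low), 1.59% (medium) and 4.9% (high). Members past the thresholds at the medium dose numbered 3 in place of 5 with at least 10 counts in every library, which removes genes low in vehicle. At the low dose they numbered 3 in place of 1 with DESeq2 on either set of libraries and with edgeR on vehicle and that dose, 2 with no filter, and 1 to 3 with a library left out, 2 without high replicate 1 and 3 without high replicate 2. The cause of the other changes was not tested. The main fit used no pairing by replicate number. Deviations of same-numbered libraries from their group means correlated at r of -0.264 to 0.139, above 0.1 in 4 of 18 pairs. Differently numbered libraries were not compared, so a batch shared by replicate number was not tested. With the replicate block, 13 listed genes were called at the high, 3 at the medium and 0 at the low dose, members numbered 6, 4 and 1, and neighbours 3. Neighbours called at the high dose numbered 2 to 4 over all alternatives. An adjusted p that DESeq2 gave as missing was left out. Depth limits CXCL2, CXCL5, CCL20 and IL17C, whose vehicle libraries had at most 12 counts each.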

Other observations

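CXCR5, the receptor of CXCL13 on B cells, had 599.35 expected counts in vehicle replicate 1 and 144.25 in high replicate 2, and 0 in the other 10 libraries. The gene (chr11:118883892-118897787) overlaps BCL9L in the annotation, and it was not fitted. It was singled out after its values were seen.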
